A study of Mus musculus with 6 samples.

Results

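The 10 genes described here encode proteins of the extracellular matrix and were followed in cultures of bone marrow-derived macrophages (BMMs) exposed to cartilage fragments. They fall into 5 collagen chains (Col1a1, Col1a2, Col3a1, Col6a1 and Col6a2) and 5 matrix proteins that macrophages are known to make (Fn1, Sparc, Spp1, Tgfbi and Thbs1). Each gene was found by its symbol in the deposited transcript tables, the values of its transcripts were summed in each library, and all 10 were present among the 24394 symbols and passed the filter for testing, which kept 10352 genes. The study asked how macrophages respond, as a whole, to particles of worn cartilage, which are a feature of osteoarthritic joints.

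BMMs were grown from marrow of C57BL/6 mice (postnatal day 28 in the labels) in 50 ng/ml of macrophage colony-stimulating factor (M-CSF) for 7 days, and this was shared by both groups. The 3 control libraries came from BMMs that received no cartilage, and the 3 libraries of the cartilage fragment group came from BMMs cultured for 24 h with crushed femoral head cartilage at 5 fragments per cell. The marrow was passed through a monocyte isolation kit and adherent cells were washed before the fragments were added. Nothing in the sources used here says that the 3 cultures of a group came from separate mice, and p-values then measure only the spread between these samples.

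The interstitial collagens of types I and III form the load-bearing fibrils of bone, skin and tendon and are textbook products of fibroblasts and osteoblasts. Type VI collagen forms beaded filaments around cells. Fibronectin, SPARC, osteopontin, TGFBI and thrombospondin-1 are secreted glycoproteins that sit on those fibrils and connect them to integrins and other receptors on the cell surface, and activated macrophages are known to release them during wound repair.

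The libraries held between 699237 and 776371 estimated fragments. This is far below the number of reads per sample that the Methods state, and the difference could not be resolved from the files, so fragment counts and their intervals rest on the estimate. The Methods give male mice, but Xist, the RNA that silences an inactive X chromosome, stood at 19.8 to 23.6 FPKM in every library, and Ddx3y, Eif2s3y, Kdm5d and Uty of the Y chromosome were at 0. The macrophage list (Csf1r, Adgre1, Cd68, Itgam, Lyz2, Mertk, Fcgr1, Cd14 and Aif1) was above 0 in at least 1 library for 9 of 9 genes, with summed levels of 29446 to 39217 FPKM in controls and 30067 to 40229 FPKM with fragments. Most of that sum was Lyz2 (26780 to 37370 FPKM), and the named transcripts of Mertk are listed at 0 in control replicates 1 and 2. FPKM divide the fragments of a transcript by its length and by the depth of the library, so that levels of different genes can be set side by side.

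The promoters of the members that passed the test on locus fragments are shown first, where the sequence table holds them, so that the regulatory sequence of genes that were lower and of genes that were higher can be read side by side. They are the 250 bases before the RefSeq start of each gene on GRCm38.p6, read 5′ to 3′ on the strand of the gene. Col1a2 (chr6:4505368-4505617, plus strand) and Col6a1 (chr10:76726045-76726294, minus strand) were lower with fragments, and Spp1 (chr5:104434861-104435110, plus strand) and Tgfbi (chr13:56609336-56609585, plus strand) were higher. Capitals mark every match, on either strand, to the CCAAT box, which is named by its letters, to the TATA box, searched as TATAAA, to the AP-1 motif, searched as TGACTCA, and to the GC box, searched as GGGCGG.
Col1a2: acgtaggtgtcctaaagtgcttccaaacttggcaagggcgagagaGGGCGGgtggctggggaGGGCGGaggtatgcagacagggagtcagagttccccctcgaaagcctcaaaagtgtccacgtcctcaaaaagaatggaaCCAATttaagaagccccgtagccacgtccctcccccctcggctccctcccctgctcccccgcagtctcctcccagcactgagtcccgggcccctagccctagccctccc
Col6a1: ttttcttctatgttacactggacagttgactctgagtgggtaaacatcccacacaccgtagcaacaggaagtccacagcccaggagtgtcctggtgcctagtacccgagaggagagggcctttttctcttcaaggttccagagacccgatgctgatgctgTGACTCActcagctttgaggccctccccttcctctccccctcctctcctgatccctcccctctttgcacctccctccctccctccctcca
Spp1: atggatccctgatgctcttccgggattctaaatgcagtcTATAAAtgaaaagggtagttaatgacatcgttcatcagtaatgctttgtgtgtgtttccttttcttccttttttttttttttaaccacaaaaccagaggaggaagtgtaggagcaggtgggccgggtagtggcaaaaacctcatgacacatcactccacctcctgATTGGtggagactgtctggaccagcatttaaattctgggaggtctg
Tgfbi: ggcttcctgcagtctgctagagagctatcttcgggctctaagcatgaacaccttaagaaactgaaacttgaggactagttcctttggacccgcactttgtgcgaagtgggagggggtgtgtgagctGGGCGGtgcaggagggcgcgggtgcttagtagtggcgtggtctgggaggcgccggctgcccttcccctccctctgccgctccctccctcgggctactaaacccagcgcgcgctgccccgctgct
The Col1a2 window holds a CCAAT box that begins 109 bases before the start and GC boxes at 205 and 188 bases before it. The Col6a1 window holds 1 AP-1 motif, 90 bases before the start, and none of the other motifs. In the Spp1 window the CCAAT box lies on the opposite strand 46 bases before the start, and TATAAA begins 211 bases before it. Tgfbi has 1 GC box, 124 bases before its start. None of these matches overlap each other.

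Matches of this kind are common. Of 32851 mouse promoter windows of the same length, 33.8% hold CCAAT, 12.4% TATAAA, 4.46% TGACTCA and 32.7% GGGCGG on either strand, so a match is a description of the sequence and not a binding site. CAGAC, the core of the Smad-binding element of TGF-beta signaling, was found in 42.2% of all windows, and among the 9 windows of the members it was found in 7, which belong to Col1a2, Col3a1, Col6a2, Sparc, Spp1 and Tgfbi. The table covers 7 of the 10 members, and Col1a1, Fn1 and Thbs1 are not in it. The RefSeq starts of Col6a1 and Spp1 are those of the deposited transcripts, that of Tgfbi lies 17 bases upstream and that of Col1a2 79 bases upstream of them, and GENCODE M21 begins Col1a2, Col6a1 and Tgfbi farther upstream still.

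Across the 6 libraries the members differed widely in their mean level. Spp1, which encodes osteopontin, was by far the most abundant, at a mean of 688.6 FPKM, rank 104 among all symbols. Thbs1 (174.1 FPKM) and Tgfbi (110.3 FPKM) followed. Col1a2, Sparc, Fn1 and Col1a1 lay close together between 63.4 and 65.7 FPKM, within the top 10% of tested genes (9.42% to 9.74%). Col6a1 (9.27 FPKM), Col6a2 (4.83 FPKM) and Col3a1 (2.44 FPKM) were low.

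From named transcripts the order of the mean levels was not the same in both groups. In controls Spp1 and Thbs1 were followed by Tgfbi, Col1a1, Col1a2 and Sparc at 81.4 ± 5.97, 79.0 ± 7.28, 72.8 ± 15.4 and 72.3 ± 6.37 FPKM (SD, n = 3), and each of these overlapped its neighbour in the ranges of the libraries. Fn1 came next at 56.4 ± 6.91 FPKM, below the range of Sparc. With fragments the order was Spp1, Thbs1, Tgfbi, Fn1, Col1a2, Sparc and Col1a1, where Thbs1 overlapped Tgfbi, Col1a2 overlapped Sparc, and Col1a1, at 47.8 ± 3.77 FPKM, lay below the range of Sparc. Col6a1, Col6a2 and Col3a1 held the last places in both groups, and Col6a1 overlapped Col6a2 only with fragments. With assembled transcripts added, Thbs1 with fragments (212.4 to 273.2 FPKM) did not overlap Tgfbi, and control Fn1 reached 69.4 FPKM, within the range of Sparc (66.7 to 79.2 FPKM).

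**Figure D1:**
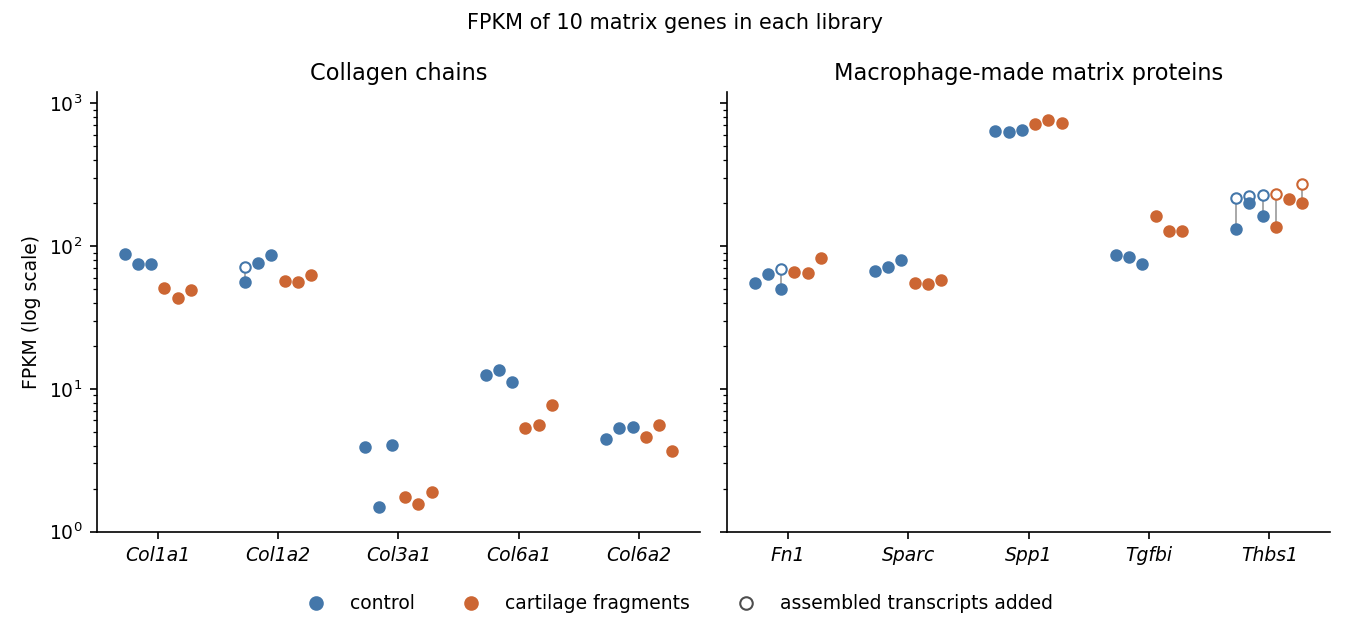
FPKM (log axis) of the 10 genes in each library, with 3 control libraries (blue) and 3 libraries with cartilage fragments (orange) per gene from replicate 1 to 3. Open circles add transcripts assembled in that library at the same locus. The control and fragment points of Col1a1, Col6a1, Sparc, Spp1 and Tgfbi do not overlap, and those of Fn1 overlap only with the assembled transcript added.

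In the planned test on FPKM no member passed. The paper's own comparison, by Cuffdiff at a q-value below 0.05, lists Col1a1 and Col1a2 as down-regulated and Tgfbi as up-regulated. The other members are not in its list, and that comparison was not repeated here. Of the other matrix genes named below, that list has Sdc4, Itga5, Cd44 and Tgm2 as up-regulated. It has Col5a2, Gas6 and Mfge8 as down-regulated. In FPKM of named transcripts the groups did not overlap for Col1a1, Col6a1 and Sparc, where the cartilage fragment libraries were lower, or for Fn1, Spp1 and Tgfbi, where they were higher, and Fn1 overlapped once assembled transcripts were added. limma on log2(FPKM + 0.1) called 0 of the 10 members at an adjusted p below 0.05, where 19 of 10352 genes (0.184%) were called. At an unadjusted p below 0.05 there were 5 members (Col1a1, Col6a1, Sparc, Spp1 and Tgfbi) and 675 genes in all (6.52%). The same test on estimated fragments of each locus, with the assembled transcripts included, called 5 of the 10 members, where 260 of 10393 genes (2.5%) were called. That test was added after the values had been seen. The members that passed it were Col1a1, Col1a2 and Col6a1, which were lower with fragments, and Tgfbi and Spp1, which were higher. The summed level of 14 stromal cell markers was also lower with fragments (54.2 to 69.1 against 94.8 to 102.9 FPKM). Most of that sum came from Postn, Col5a1 and Col5a2, which are matrix genes themselves. The 6 markers that are receptors or transcription factors overlapped between groups (2.31 to 4.26 FPKM with fragments against 3.67 to 4.70 in controls). The part of stromal cells in the collagen values was not tested. In bulk RNA fewer cells of a type and less RNA per cell cannot be told apart.

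Col1a1 (chromosome 11, 94936270 to 94951856), the main chain of type I collagen, was at 87.4, 75.2 and 74.4 FPKM in controls and at 50.7, 43.6 and 49.2 FPKM with fragments. Every library with fragments was below every control. The mean with fragments was 60.6% of that in controls, with a log2 fold change of -0.72 (SE 0.121) and an adjusted p of 0.195 from limma on FPKM. From fragments of the locus, 808 in the 3 controls and 467 with cartilage, the log2 fold change was -0.72 (SE 0.0943) and the adjusted p 3.03e-06, and it was called without each library in turn (adjusted p at most 0.000339). Only 1 transcript is named for this gene and none was assembled at its locus, so the FPKM and the fragment numbers describe the same transcript.

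Col1a2 (chromosome 6, 4505697 to 4541543) encodes the partner chain of Col1a1 in type I collagen. It was at 56.1, 76.0 and 86.4 FPKM in controls and at 56.7, 56.4 and 62.6 FPKM with fragments. Control replicate 1 was as low as the libraries with fragments, and in that library a further transcript of 5089 bases had been assembled at the locus, which held 15.7 FPKM. With it control replicate 1 stood at 71.8 FPKM and the groups no longer overlapped. On the log2 scale the difference was -0.29 (SE 0.18, adjusted p 0.797) from the named transcript and -0.41 (SE 0.0871, adjusted p 0.00375) from fragments of the locus, and without control replicate 3 the adjusted p of the latter was 0.051.

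The balance of the type I chains, with assembled transcripts included, was 1.22, 0.99 and 0.861 Col1a1 per Col1a2 in controls and 0.894, 0.773 and 0.786 with fragments. These ratios of FPKM overlapped between groups. Together the type I chains made up 87.4% to 88.6% of the collagen FPKM in controls and 88.7% to 90.2% with fragments, counting named transcripts of the 5 chains only.

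Col3a1 (chromosome 1, 45311538 to 45349706), the chain of type III collagen that accompanies type I in soft tissue, rested on few fragments. It was at 3.88, 1.5 and 4.06 FPKM in controls and at 1.75, 1.57 and 1.89 FPKM with fragments. Control replicate 2 was the lowest of all 6 libraries, at 6 fragments against 16 in each of the other controls and 6 or 7 in those with cartilage. The 95% Poisson interval around those 6 fragments ran from 2.24 to 13.1 and that around the 16 of control replicate 1 from 9.21 to 26.1, and both cover counting error only. The log2 fold change of -0.70 (95% interval -2.0 to 0.59, adjusted p 0.797) includes 0, and a difference was not detectable at this depth.

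Col6a1 (chromosome 10, 76708792 to 76726044) and Col6a2 (chromosome 10, 76595756 to 76623404) are neighbouring genes whose chains assemble into type VI collagen. Col6a1 was at 12.4, 13.5 and 11.2 FPKM in controls and at 5.33, 5.56 and 7.66 FPKM with fragments. All libraries with fragments lay below the controls, at 50.1% of their mean. The log2 fold change was -1.0 (SE 0.219, adjusted p 0.349) from FPKM and -0.99 (SE 0.238, adjusted p 0.0124) from the 106 control and 50 cartilage fragments of the locus. That call was lost without control replicate 1 or 2 or without cartilage replicate 1 or 2, with an adjusted p of at most 0.108.

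Col6a2 was at 4.43, 5.31 and 5.40 FPKM in controls and at 4.57, 5.56 and 3.69 FPKM with fragments, and the groups overlapped. Its log2 fold change was -0.14 with a 95% interval from -0.83 to 0.54 (adjusted p 0.886), and without cartilage replicate 3 it was 0.0039. The ratio of Col6a1 to Col6a2 was 2.80, 2.54 and 2.07 in controls and 1.17, 1.0 and 2.08 with fragments. Cartilage replicates 1 and 2 had about equal FPKM of the chains, and replicate 3 lay at the level of control replicate 3.

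**Figure D2:**
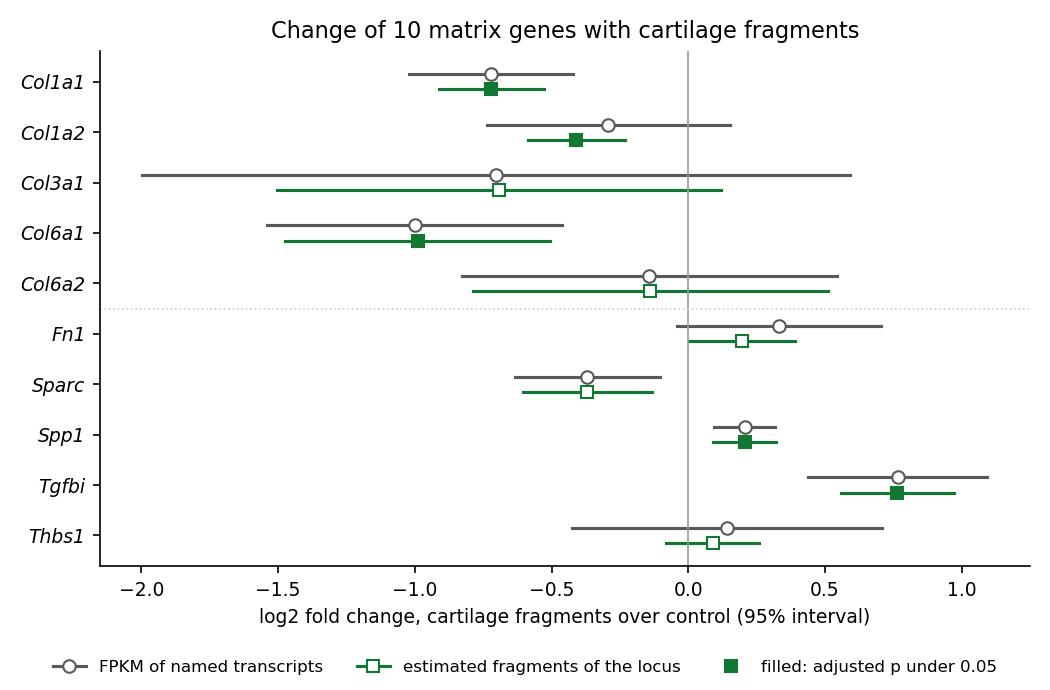
log2 fold change of the 10 genes, cartilage fragments over control, with 95% intervals from limma on FPKM of named transcripts (circles) and on estimated fragments of the locus (squares). Filled symbols had an adjusted p below 0.05, and these are the squares of Col1a1, Col1a2, Col6a1, Spp1 and Tgfbi.

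Among the proteins known to be made by macrophages, Tgfbi (chromosome 13, 56609603 to 56639339) showed the largest difference. Its product is a secreted adhesion protein that binds collagens and integrins and takes its name from its induction by TGF-beta. Tgfbi was at 86.2, 83.3 and 74.7 FPKM in controls and at 163, 127 and 127 FPKM with fragments. The groups did not overlap, and cartilage replicate 1 stood above the other libraries. limma gave a log2 fold change of 0.77 (SE 0.133, adjusted p 0.227) from FPKM and 0.76 (SE 0.101, adjusted p 3.97e-06) from 458 control and 750 cartilage fragments, and the latter was called without each library in turn (adjusted p at most 0.000846).

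Spp1 (chromosome 5, 104435111 to 104441053) encodes osteopontin, a ligand of integrins and of CD44. It was at 640, 629 and 649 FPKM in controls and at 717, 766 and 731 FPKM with fragments. The difference was small, with 115% of the control mean, and the libraries of a group agreed closely (coefficients of variation of 1.61% and 3.40%). The log2 fold change was 0.21 (SE 0.0454, adjusted p 0.35) from FPKM and 0.21 (SE 0.0561, adjusted p 0.0374) from fragments. The latter was called only in all 6 libraries and without control replicate 3, and its adjusted p without 1 library reached 0.254.

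Fn1 (chromosome 1, 71585473 to 71653234) encodes fibronectin, the ligand of the integrin that contains Itga5. Its named transcripts were at 55.0, 63.9 and 50.3 FPKM in controls and at 65.8, 65.0 and 82.5 FPKM with fragments. These groups did not overlap, but in control replicate 3 an assembled transcript of 8155 bases held a further 19.1 FPKM, which brought that library to 69.4 FPKM and into the range of the group with fragments. limma gave a log2 fold change of 0.33 (SE 0.152, adjusted p 0.777) from named transcripts and 0.20 (SE 0.0922, adjusted p 0.421) from fragments of the locus.

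Fibronectin RNA is spliced, and the extra domains A and B mark the cellular form of the protein that is made in repair. The deposited files list 7 transcripts of Fn1, of which 4 hold an exon of 270 bases (chromosome 1, 71603660 to 71603929) and 1 holds an exon of 273 bases (chromosome 1, 71613763 to 71614035) in GENCODE M21. Transcripts with the 270-base exon held 40.7%, 15.4% and 34.9% of the FPKM of named Fn1 transcripts in controls and 52.7%, 37.0% and 43.3% with fragments, and the groups overlapped. The transcript with the 273-base exon held 13.5%, 15.4% and 16.0% in controls and 40.8%, 13.9% and 21.1% with fragments. Cartilage replicate 1 was far above the rest for that exon and replicate 2 was among the controls. Cufflinks divides fragments between transcripts that share most of their sequence, so these shares are estimates, and the assembled transcript that held 27.5% of the locus in control replicate 3 is not counted in them.

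Thbs1 (chromosome 2, 118111922 to 118127133) encodes thrombospondin-1, which binds CD36 and CD47 and can release TGF-beta from its latent form. Its named transcript was at 132, 200 and 163 FPKM in controls and at 136, 212 and 201 FPKM with fragments. In 5 of the 6 libraries the same locus also held an assembled transcript of 5799 bases, against 5802 bases of the named one, with 39.6%, 10.8% and 28.7% of the Thbs1 FPKM in controls and 41.7%, 0% and 26.3% with fragments. With it the levels were 218.4, 224.3 and 229.0 FPKM in controls and 232.8, 212.4 and 273.2 FPKM with fragments, and the coefficient of variation of the controls went from 20.7% to 2.37%. The controls were thus spread in the named transcript and close together in the locus as a whole. On the log2 scale the difference was 0.14 (SE 0.23, adjusted p 0.856) from the named transcript, -0.0090 without control replicate 1, and 0.09 (95% interval -0.08 to 0.26, adjusted p 0.754) from fragments of the locus.

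**Figure D3:**
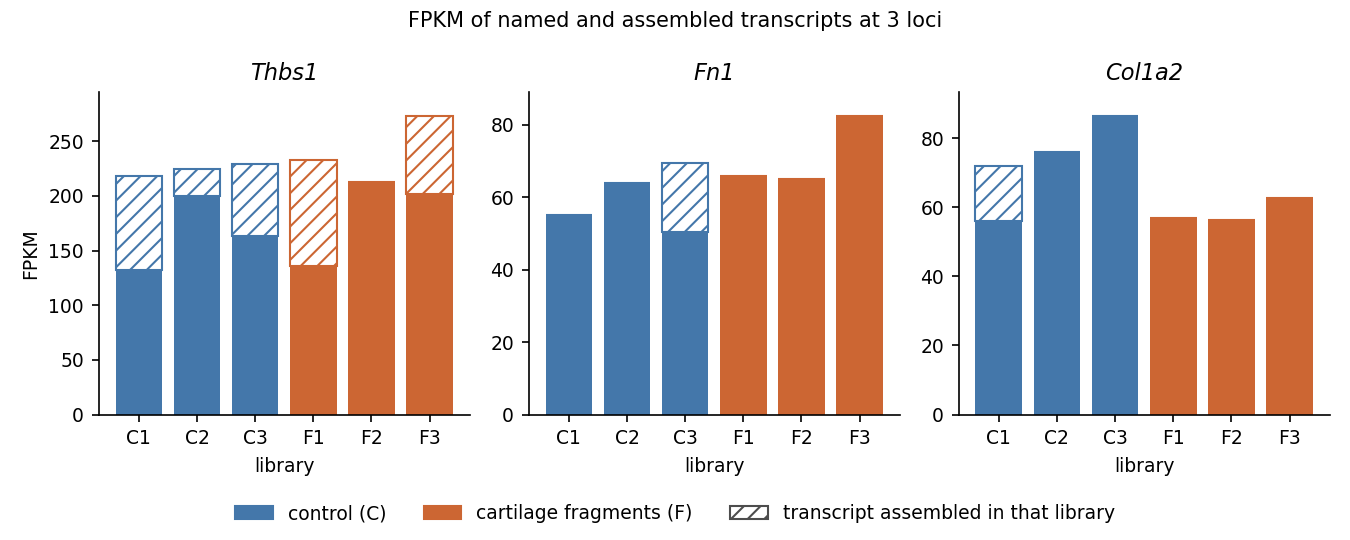
FPKM (linear axis from 0) of the named transcripts (filled) and of transcripts assembled in that library (hatched) at the Thbs1, Fn1 and Col1a2 loci, for control libraries C1 to C3 and libraries with fragments F1 to F3. The assembled part held 39.6% of Thbs1 in C1 and none in F2, and it appeared at Fn1 in C3 and at Col1a2 in C1 alone.

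Sparc (chromosome 11, 55394159 to 55420080), a collagen-binding glycoprotein that fibroblasts and osteoblasts also make in quantity, differed from the other 4 macrophage-made proteins in its sign. It was at 66.7, 70.8 and 79.2 FPKM in controls and at 55.1, 54.7 and 57.6 FPKM with fragments. Every library with fragments was below every control. The log2 fold change was -0.37 (SE 0.107, adjusted p 0.541) from FPKM and -0.37 (SE 0.116, adjusted p 0.0995) from fragments of the locus.

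Set against each other, the summed FPKM of the 5 collagen chains were 164.2, 171.5 and 181.5 in controls and 119.1, 112.6 and 125.1 with fragments, and those of the 5 macrophage-made proteins were 979.6, 1047 and 1017 in controls and 1137, 1225 and 1200 with fragments. The collagen sum was thus 16.8%, 16.4% and 17.8% of the macrophage-made sum in controls and 10.5%, 9.19% and 10.4% with fragments. The groups were apart in each of these measures. Spp1 makes up most of the macrophage-made sum and Col1a1 and Col1a2 most of the collagen sum, so the ratio describes those 3 genes above all. With assembled transcripts added it was 16.9%, 16.0% and 16.5% in controls and 9.66%, 9.19% and 9.84% with fragments.

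The members were chosen with earlier results of these data known, so the shares over all genes are a background and not a test. Read against all genes, the groups were apart in the lower direction for 2 of the 5 collagen chains (Col1a1 and Col6a1), where 6.13% of tested genes were, and in the higher direction for 3 of the 5 macrophage-made proteins (Fn1, Spp1 and Tgfbi), where 8.73% were. From fragments of the locus the corresponding numbers were 3 collagen chains, with Col1a2 added, against 7.25% of genes, and 2 macrophage-made proteins, without Fn1, against 9.47%. Among the macrophage-made proteins Sparc was apart in the lower direction by both measures, and no collagen chain was apart in the higher direction by either. With assembled transcripts added to the FPKM, 0 members were called and 38 of 10393 genes (0.366%) were. In that fit Tgfbi had an adjusted p of 0.0705 and Col1a1 of 0.0849, and 6 members had an unadjusted p below 0.05, where 955 of 10393 genes (9.19%) had.

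The other genes of the matrix were followed in lists of 191 genes, of which 95 were tested. limma on FPKM called 0 of the 95, and 16 had an unadjusted p below 0.05, where 6.52% of all tested genes had. From fragments of the locus 10 of 96 were called (5 higher and 5 lower, 10.4% against 2.5% of all genes). The lists too were chosen with earlier results known, so these shares are a description and not a test. The median log2 fold change of the listed genes was 0.08 from FPKM, beside 0.02 over all tested genes.

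Of 36 other collagen chains 14 were at 0 in all libraries and 7 were tested. Their median log2 fold change from FPKM was -0.39, and neither fit called any. Col5a2, a chain of the type V collagen that nucleates type I fibrils, was at 17.4, 17.7 and 19.7 FPKM in controls and at 12.8, 10.9 and 17.4 FPKM with fragments (log2 fold change -0.44, adjusted p 0.782). Its partner Col5a1 was at 10.2, 11.2 and 12.1 FPKM in controls and at 0, 6.82 and 3.32 FPKM with fragments. The 0 is that of the named transcript while an assembled transcript held the locus, and from fragments of the locus the log2 fold change was -0.57 (adjusted p 0.0608). Col12a1, which coats type I fibrils, had a mean of 4.24 FPKM in controls and 1.86 FPKM with fragments (-0.77 from locus fragments, adjusted p 0.0998). Col18a1, a basement membrane collagen, went the other way with 23.1 FPKM in controls and 29.5 FPKM with fragments (0.34, adjusted p 0.789 from FPKM).

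Of the other matrix glycoproteins 20 of 47 were tested (median log2 fold change -0.18). The fit on locus fragments called 5, all lower with fragments, where 2.5% of all genes were called. Postn, which encodes periostin, a matricellular protein of periosteum and fibroblasts, was at 48.5, 45.7 and 48.4 FPKM in controls and at 22.0, 21.5 and 28.2 FPKM with fragments (log2 fold change -1.01, adjusted p 1.67e-05 from locus fragments and 0.157 from FPKM). Tnn, a tenascin of bone and periosteum, was at 14.2, 12.6 and 13.1 FPKM in controls and at 4.54, 5.99 and 5.67 FPKM with fragments (-1.29, adjusted p 4.92e-05). Thbs2, the relative of Thbs1, had means of 11.9 and 6.28 FPKM (-0.94, adjusted p 0.00634), and its call was lost without control replicate 2 or cartilage replicate 1.

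The other genes called in this list were Gas6 and Mfge8, bridging proteins by which macrophages bind dying cells. Gas6 had means of 139.2 ± 12.6 FPKM in controls and 95.9 ± 6.56 FPKM with fragments (SD, n = 3; log2 fold change -0.53, adjusted p 0.000338 from locus fragments). Mfge8 had 498.0 ± 31.9 and 358.2 ± 54.8 FPKM (-0.37, adjusted p 9.33e-05). Postn, Tnn, Gas6 and Mfge8 were called without each library in turn.

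**Figure D4:**
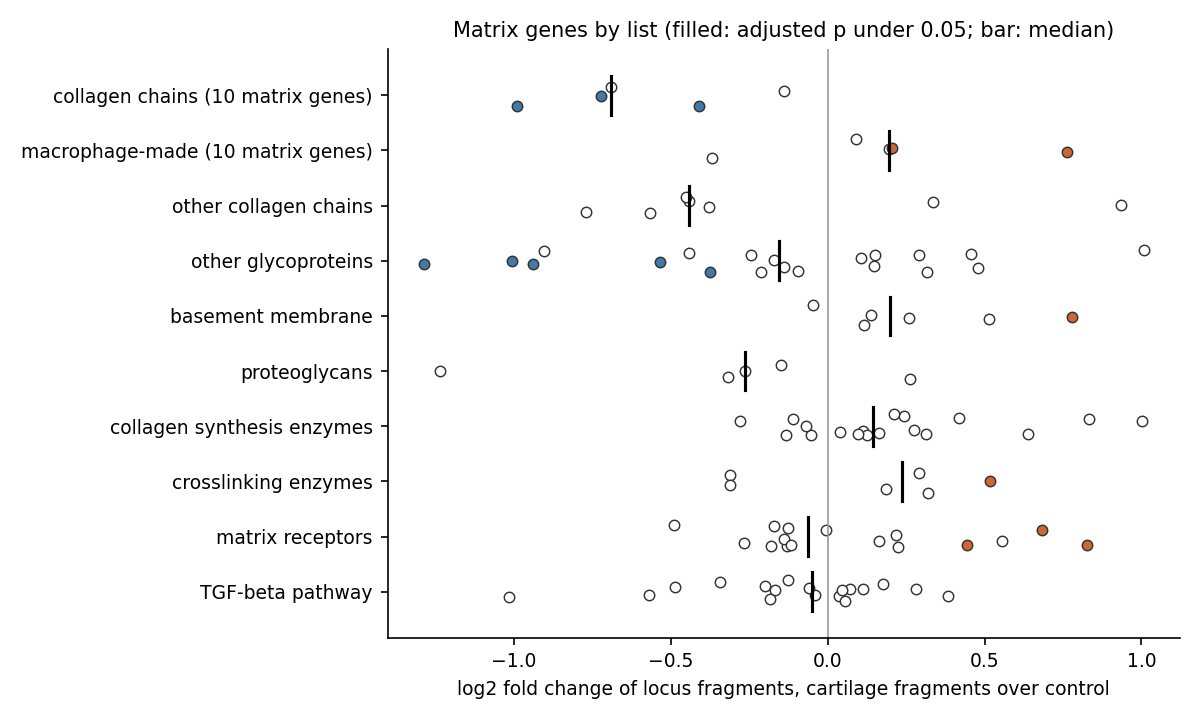
log2 fold change (locus fragments, cartilage fragments over control) of each tested gene in 10 lists, with filled points for an adjusted p below 0.05 (blue lower, orange higher) and a bar at the median of each list. The called points are 3 collagen chains and 5 glycoproteins on the left, and on the right Tgfbi, Spp1, Agrn, Tgm2 and 3 receptors.

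Of 22 enzymes and chaperones that fold and process collagen 18 were tested, 13 had a positive log2 fold change and 5 a negative one, with a median of 0.16 from FPKM, beside 5395 positive ones among 10352 genes in all, and none was called by either fit. P4hb, a subunit of prolyl hydroxylase, had means of 227.4 and 248.4 FPKM, and Ppib, a chaperone of procollagen, of 112.5 and 121.4 FPKM. P4ha1 and Bmp1, the procollagen C-proteinase, are listed at 0 in 1 and 2 control libraries where assembled transcripts held the loci, and from fragments of the loci their log2 fold changes were 0.25 (adjusted p 0.51) and 0.64 (adjusted p 0.42).

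Among the crosslinking enzymes 6 of 8 were tested, with a median of -0.04 from FPKM and 0.24 from locus fragments. Tgm2, the tissue transglutaminase that joins fibronectin and collagen, was at 43.2, 42.8 and 37.4 FPKM in controls and at 65.4, 54.4 and 57.1 FPKM with fragments (log2 fold change 0.52, adjusted p 0.00661 from locus fragments and 0.438 from FPKM), and the former call was lost without cartilage replicate 1. Loxl2, a lysyl oxidase, had means of 5.63 and 7.02 FPKM (0.32, adjusted p 0.797 from FPKM), and F13a1, the A subunit of factor XIII, had 13.5 and 10.4 FPKM with overlapping groups.

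Receptors for the members were mixed, with 16 of 22 tested and medians of 0.09 from FPKM and -0.06 from locus fragments. The fit on locus fragments called 3, all higher with fragments, where 2.5% of all genes were called. Sdc4, a heparan sulfate receptor for fibronectin, had means of 27.7 and 49.1 FPKM (log2 fold change 0.83, adjusted p 0.00245), and the call was lost without cartilage replicate 2. Lair1, an inhibitory receptor for collagen, had means of 19.9 and 33.0 FPKM (0.68, adjusted p 0.00946), lost without control replicate 1 or cartilage replicate 2. Itga5 reached an adjusted p of 0.0461 at a log2 fold change of 0.44, and kept its call in 1 of 6 fits that left out a library. The paper reports higher Itga5 with fragments by qRT-PCR, in BMMs and in peritoneal macrophages. Cd44, the receptor of osteopontin and hyaluronan, had means of 101.6 and 118.3 FPKM (0.22, adjusted p 0.761 from FPKM).

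Cd36, the thrombospondin receptor, was at 422.0, 397.6 and 556.9 FPKM in controls and at 301.2, 327.7 and 255.3 FPKM with fragments from named transcripts (log2 fold change -0.63, adjusted p 0.445). From fragments of the locus the log2 fold change was -0.13 (adjusted p 0.408). The locus as a whole thus differed less than its named transcripts did.

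The proteoglycan list had 5 of 20 genes tested, none of them called, at a median of -0.27. Bgn, the small proteoglycan biglycan, had means of 54.8 ± 4.39 and 49.8 ± 8.61 FPKM (SD, n = 3), and Srgn, the granule proteoglycan of leukocytes, had 132.8 and 111.0 FPKM. In the basement membrane list 6 of 14 genes were tested, with a median of 0.20, and the fit on locus fragments called Agrn, the heparan sulfate proteoglycan agrin, at means of 4.09 and 7.05 FPKM (0.78, adjusted p 0.0461, kept in 1 of 6 fits that left out a library). Lamc1, a laminin chain, had means of 8.12 and 8.76 FPKM.

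In the TGF-beta list 17 of 22 genes were tested, 9 with a positive and 8 with a negative log2 fold change, with a median of 0.06 and none called by either fit. Tgfb1, the ligand, was at 166.1 ± 12.1 FPKM in controls and 172.5 ± 6.56 FPKM with fragments (SD, n = 3). Smad4, the shared signal transducer, had means of 12.5 and 8.45 FPKM (log2 fold change -0.58, adjusted p 0.755), and Tgif1, a repressor of the pathway, had 81.5 and 70.8 FPKM. The RNA levels of Tgfb1 overlapped between groups. Active TGF-beta was not measured, and its part in the Tgfbi values was not tested.

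Markers of cells other than macrophages were checked because type I collagen is not a typical macrophage product. The 16 chondrocyte markers summed to 2.40 to 5.21 FPKM in controls and 1.44 to 3.35 FPKM with fragments, 10 of them were at 0 in all libraries (Matn1, Matn3, Hapln1, Col9a1, Col9a2, Col9a3, Lect1, Cytl1, 3110079O15Rik and Ucma), and Col2a1, the main cartilage collagen, was at most 1.22 FPKM with fragments and 1.15 FPKM without. The defining markers of cartilage were thus at or near 0 in both groups. Of the 6 endothelial markers 3 were at 0 throughout, with sums of 0.248 to 3.10 FPKM in controls and 0 to 1.22 FPKM with fragments, and the 6 megakaryocyte markers, a source of stored thrombospondin, summed to at most 2.59 FPKM.

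The summed stromal markers were lower with cartilage fragments. Of the 8 markers tested, however, 0 were called from FPKM and 1 (Postn) from fragments of the locus, where 2.5% of all genes were. Of 14 genes 13 were above 0 and Tcf21 was at 0, and their sum was 94.8 to 102.9 FPKM in controls and 54.2 to 69.1 FPKM with fragments. Most of that sum came from Postn, Col5a1 and Col5a2, which are matrix genes themselves. The 6 markers of the list that are cell surface receptors or transcription factors (Pdgfra, Pdgfrb, Thy1, Twist1, Prrx1 and Tcf21, chosen after their values were seen) summed to 3.67, 4.08 and 4.70 FPKM in controls and 2.31, 3.73 and 4.26 FPKM with fragments, on 43 and 32 fragments in all, and overlapped. Dcn was at 1.69 to 4.55 FPKM and Lum at 0 to 0.726 FPKM.

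The 7 osteoblast markers summed to 6.81 to 8.26 FPKM in controls and 2.05 to 6.15 FPKM with fragments, with Bglap and Phex at 0. Alpl, the bone alkaline phosphatase, was at 3.92, 1.73 and 2.93 FPKM in controls and at 0, 1.21 and 0.623 FPKM with fragments, on 18 fragments in all 6 libraries. The part of osteoblastic cells in the collagen values was not tested either. The 8 neutrophil markers summed to 763.7 to 948.2 FPKM in controls and 754.7 to 1098 FPKM with fragments. Most of that sum was S100a8 (233.3 to 454.3 FPKM) and S100a9 (329.4 to 502.3 FPKM). Elane, Mpo and Prtn3 rested on 1, 5 and 2 fragments in all libraries together.

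**Figure D5:**
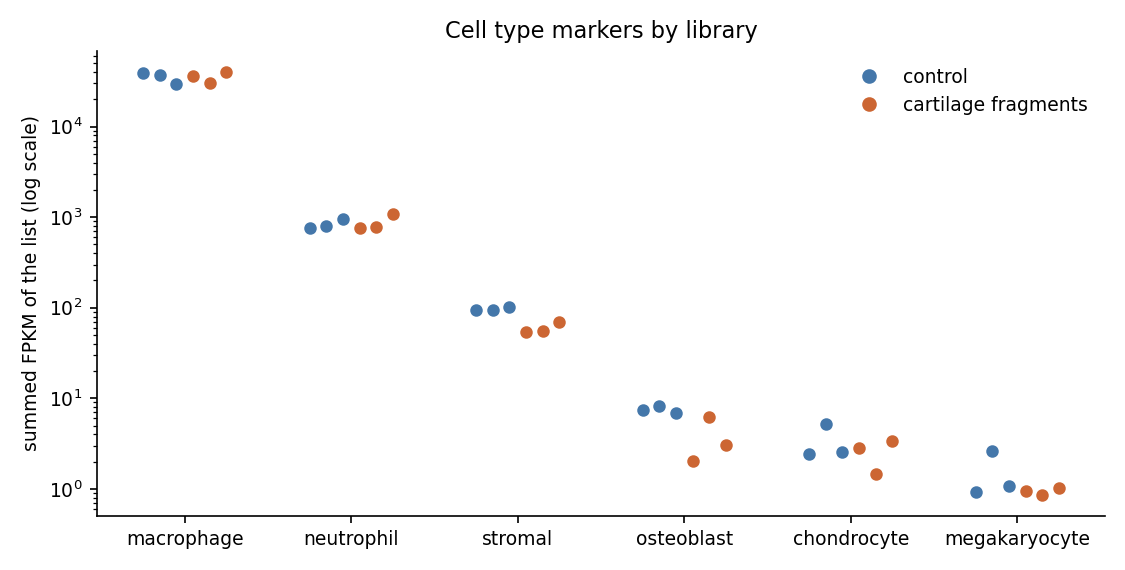
Summed FPKM (log axis) of 6 lists of cell type markers in each library, control in blue and cartilage fragments in orange. The stromal sums (94.8 to 102.9 against 54.2 to 69.1 FPKM) and the osteoblast sums do not overlap between groups, and the macrophage, neutrophil and chondrocyte sums do.

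Macrophage markers themselves differed for some genes. From fragments of the locus 4 of the 9 were called, where 260 of 10393 genes (2.5%) were. All 4 were higher with cartilage, namely Adgre1 (log2 fold change 0.58, adjusted p 2.77e-10), Itgam (0.26, adjusted p 0.000134), Cd14 (0.64, adjusted p 6.91e-05) and Aif1 (0.94, adjusted p 0.0176). Of these Aif1 lost its call without control replicate 2 or cartilage replicate 1 or 2. In the FPKM fit 0 of the 9 were called and 4 had an unadjusted p below 0.05, where 6.52% of all tested genes had. With assembled transcripts added 2 of the 9 were called (Adgre1 and Cd14, both higher), where 0.366% of all genes were. Without control replicate 3 the FPKM fit called 1 (Mertk, higher), where 19 of 10344 genes were called. The named transcripts of Mertk are at 0 in the remaining controls. From fragments of the Mertk locus, in all 6 libraries, limma gave a log2 fold change of -0.08 (adjusted p 0.846).

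The genes with the most similar profile over the 6 libraries were sought among those with a mean of at least 20 FPKM. For the sum of the 5 collagen chains they were Rnh1 (r = 0.991), Ncoa3 (r = 0.987), Creg1 (r = 0.981), Postn (r = 0.980) and Fabp5 (r = 0.975) out of 3002 genes. For Tgfbi they were Tkt (r = 0.997), Tgm2 (r = 0.992), Cyfip1 (r = 0.984), Mapkapk2 (r = 0.981) and Atp6v0c-ps2 (r = 0.979), and for Fn1 they were Calr (r = 0.984), Ube2v1 (r = 0.983), Lilrb4a (r = 0.982), Psmc4 (r = 0.971) and Ptma (r = 0.966) out of 3003. Pearson's r of log2(FPKM + 0.1) over 6 libraries that share their depth and the group difference is a description, and 17, 26 and 11 genes exceeded 0.95 for the collagen sum, Tgfbi and Fn1. Postn, a matrix gene, and Tgm2, a matrix crosslinking enzyme, were the listed genes among them.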

How the data were processed

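RNA-seq of 3 control and 3 cartilage fragment BMM cultures was used. Per the Methods, a stranded mRNA kit and paired-end reads of 100 bp were used, the authors used TopHat and Bowtie for alignment to mm10 and Cufflinks for abundance (versions not given in the sources used here), and the same Methods name TMM normalization and removal of low FPKM, which could not be traced in the values. The deposited FPKM are Cufflinks values per transcript, for reference transcripts and for transcripts assembled in one library. The deposited coverage is the mean read depth per transcript. The files hold no counts.

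FPKM of named transcripts were summed per symbol. Assembled transcripts carry no symbol and were added by locus in an alternative. Fragments were estimated as coverage × (length − 210) / 100, where 95.5% to 96.16% of values up to 8 came within 0.1 of a whole number. The 210 was the offset, among those tried, with the highest share of such values, so that share is not an independent check. Positions are on mm10, 1-based. Genes averaging 1 FPKM or more were tested in R 4.3.3 with limma 3.58.1 (trend and robust, two-sided, Benjamini-Hochberg, threshold 0.05) on log2(FPKM + 0.1). The added 0.1 understates changes of low genes. Named transcripts at 0 in some libraries gave large values instead, as for Bmp1 (log2 fold change 4.38 from FPKM and 0.64 from locus fragments). An exact permutation test of 3 against 3 libraries cannot go below 0.1 and was not used. For locus fragments, fragments scaled to the library total with 0.5 fragment added were used on the log2 scale. Tables came from pandas 2.3.3 and scipy 1.17.1 under Python 3.11.15 (numpy 2.4.6), and figures from matplotlib 3.10.9. The fit on FPKM was tested on simulated data without assembled transcripts, and the fit on locus fragments was not tested in this way. Promoters are from RefSeq (GRCm38.p6).

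The members and lists were chosen with earlier results of these data known. Named were all members, of each list the genes called from FPKM or else the 2 most abundant and the 2 largest differences without overlap between groups, and the 5 genes most like Fn1, Tgfbi and the collagen sum. Other genes, such as Thbs2, Itga5 and the macrophage markers, were named for their call from locus fragments. Alternatives changed the pseudocount (1, 0.01), filter (none, 5 FPKM), scaling, status, moderation, weights and replicate block, or left out a library. Intervals on fragments cover counting error only. 1 further macrophage marker, beside the 9 used, is not reported here.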

Additional observations from a re-analysis of the deposited data

How the results depend on the processing

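In every alternative other than locus fragments (pseudocount, filter, scaling, scaled fragments of named transcripts, status, moderation, sample weights, replicate block, each library left out, assembled transcripts added) 0 of the 10 members and 0 of the listed matrix genes (cell type markers not counted) were called, as in the fit reported. Locus fragments, added after the values were seen, called 5 members and 10 listed matrix genes. Col1a1 and Tgfbi have no assembled transcript, so their values were the same in locus fragments and in scaled fragments of named transcripts. Yet their adjusted p from limma was 0.103 and 0.16 from scaled fragments, and 3.03e-06 and 3.97e-06 from locus fragments. The cause of the difference between the fits was not tested. The number of all genes called was 19 in the fit reported, 8 with a pseudocount of 0.01, 12 with a filter of 5 FPKM, 38 with assembled transcripts added and 260 from locus fragments. Leaving out 1 library gave between 0 (without cartilage replicate 1) and 19 genes, with 2 without cartilage replicate 2, 6 without cartilage replicate 3 and 10 without control replicate 2, and Col6a2 between -0.28 and 0.0039 and Thbs1 between -0.0090 and 0.35 on the log2 scale. The other members kept their sign in every fit run. With the replicate block 0 genes were called in all, and 0 members, against 19 and 0 without it. Libraries of the same number share only that number, since neither the labels nor the Methods pair them. Each gene's group mean was subtracted on the log2 scale, for genes averaging at least 20 FPKM. The deviations left in same-numbered libraries correlated at -0.000264, 0.0287 and -0.00717, and not every library correlated best with its own number. The subtraction holds such values near 0 on average, so they are not correlations of whole expression profiles. Reference transcripts only was not run as a separate fit, because symbol sums hold only those transcripts and rescaling them is the fit with equal totals. Col3a1 and Col6a2 rested on the fewest fragments, 58 and 76 over all libraries.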
